A study of Homo sapiens with 9 samples.

Results

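The epithelial-mesenchymal transition (EMT) genes examined here were 10 genes picked by name from the 58735 genes of the count table. They comprised the transcription factors ZEB1, ZEB2, SNAI1, SNAI2 and TWIST1, the structural markers CDH1, CDH2, VIM and FN1, and the splicing regulator ESRP1. The RNA came from MIA PaCa-2 cells, an established human pancreatic ductal adenocarcinoma line. They had received the ERK inhibitor SCH772984 or the TBK1 and IKKε inhibitor compound 1, each at 1 μM, or the vehicle DMSO at 0.1%, over a 24-h treatment, and 3 libraries were sequenced per condition. All 3 conditions shared the same parental line, and the labels do not say whether the 3 libraries of a condition came from separate cultures, so that p-values measure the spread between these libraries. Results from a single line are limited to that line.

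In an EMT, epithelial cells lose the junctions that join them to their neighbors and gain the cytoskeleton and matrix of motile mesenchymal cells. The switch is driven by a small set of DNA-binding repressors. SNAI1 and SNAI2 are zinc finger proteins that bind E-box sequences, ZEB1 and ZEB2 combine zinc fingers with a homeodomain and bind the same kind of site, and TWIST1 is a basic helix-loop-helix protein. They repress CDH1, which encodes E-cadherin, the adhesion molecule of epithelial junctions, and ESRP1, which keeps epithelial splicing patterns. CDH2 encodes the mesenchymal N-cadherin, VIM the intermediate filament vimentin and FN1 the extracellular matrix glycoprotein fibronectin. MAPK signaling through ERK is one of the routes known to raise several of these factors, and pancreatic cancer lines lie at different points between the epithelial and mesenchymal ends.

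The total count was 9464432 to 10286223 per library with DMSO, 9652741 to 9840769 with compound 1 and 11056977 to 13887859 with SCH772984. Mitochondrially encoded genes took 3.33% to 3.98% of the counts with DMSO, 3.41% to 3.92% with compound 1 and 6.23% to 7.52% with SCH772984, and the part of this in the changes below was not tested. Replicate 1 of compound 1 stood apart from the other 2 libraries of its group, with a chi-square over genes, divided by its degrees of freedom, of 5.37 and 6.95 against 2.00 to 4.67 for the remaining pairs of libraries within groups. The label was checked against markers of a pancreatic carcinoma line. The keratin genes KRT8, KRT18 and KRT19 had at least 1840 counts in every library, whereas KRT7 had at most 5, and EPCAM, an epithelial surface marker, had 0 in all 9. CDKN2A, which is deleted in this line, also had 0. Of the 5 immune markers, PTPRC and CD3E had 0 counts in all libraries and CD68 at most 1, but CD14 had 9 to 28 and LYZ 0 to 13, and their summed level was 3.01 to 4.23 CPM with DMSO, 2.03 to 3.39 with compound 1 and 0.814 to 1.80 with SCH772984. Of the 4 endothelial markers, KDR had 0 counts, PECAM1 at most 1 and VWF at most 4, but CDH5 had 28 to 40 with DMSO, 60 to 63 with compound 1 and 0 to 4 with SCH772984. The summed endothelial level was 2.72 to 4.33, 6.10 to 6.46 and 0 to 0.576 CPM, and the part of either list in the changes below was not tested. As a check of the ERK inhibitor, 10 ERK output genes were examined, of which 9 could be tested and all 9 were lower with SCH772984 than with DMSO, with a median log2 fold change of -5.80, where 35.5% of all genes tested were lower. With compound 1, 0 of 9 passed the threshold by the edgeR test, where 0.864% of all genes did, and 3 had an unadjusted p under 0.05, as 15.0% of all genes did.

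Positions are given on GRCh38. VIM (ENSG00000026025) spans chr10:17228259-17237593 on the plus strand and ZEB1 (ENSG00000148516) chr10:31318495-31529814 on the same strand. SNAI1 (ENSG00000124216) spans chr20:49982999-49988886 on the plus strand, and SNAI2 is ENSG00000019549. FN1 (ENSG00000115414) spans chr2:215360440-215436172 on the minus strand and CDH1 (ENSG00000039068) chr16:68737225-68835548 on the plus strand. The counts cover the merged exons of each gene, UTRs included. VIM shares 641 exonic bases with VIM-AS1 on the opposite strand, which had 19 to 30 counts, and ZEB1 shares 366 with ZEB1-AS1, which had 47 to 85. Since the sources used here do not give the strand setting of the counting, reads in these shared stretches cannot be assigned with certainty.

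Promoter sequences from RefSeq (GRCh38.p14), taken as the 250 bases before a listed start, were found for 5 of the 10 genes, ZEB1, ZEB2, CDH2, VIM and FN1. They are shown for the 3 of these genes whose RNA differed between SCH772984 and DMSO, each 5′ to 3′ on the strand of the gene and with bases inside annotated exons left out. The windows lie at chr2:215436173-215436318 (minus strand) for FN1, chr10:31318167-31318416 (plus strand) for ZEB1 and chr10:17227991-17228240 (plus strand) for VIM. Capitals mark a cyclic AMP response element (CRE, TGACGTCA) in FN1 and an E-box of the kind that SNAI and ZEB proteins bind (CAGGTG) in ZEB1.
FN1: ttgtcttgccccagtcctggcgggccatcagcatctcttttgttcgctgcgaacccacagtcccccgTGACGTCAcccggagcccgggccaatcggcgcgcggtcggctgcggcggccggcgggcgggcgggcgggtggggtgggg
ZEB1: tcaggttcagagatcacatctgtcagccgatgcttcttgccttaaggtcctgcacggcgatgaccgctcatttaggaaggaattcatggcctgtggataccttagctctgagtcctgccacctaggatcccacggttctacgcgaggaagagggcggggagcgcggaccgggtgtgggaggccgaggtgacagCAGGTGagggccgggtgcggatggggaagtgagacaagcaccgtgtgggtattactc
VIM: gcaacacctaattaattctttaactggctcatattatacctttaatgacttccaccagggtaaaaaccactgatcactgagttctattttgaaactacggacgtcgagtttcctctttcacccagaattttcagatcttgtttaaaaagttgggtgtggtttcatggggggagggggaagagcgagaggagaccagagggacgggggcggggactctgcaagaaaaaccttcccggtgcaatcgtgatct

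The windows were searched on both strands for CAGGTG, TGACGTCA and the AP-1 motif TGANTCA, which do not overlap in these matches. The CRE of FN1 begins 183 bases before the RefSeq start, and 1.65% of 35116 promoter windows of the same length held this motif. ZEB1 has 7 windows at different starts in the table, and the one shown is the most upstream. An E-box, a motif in 17.5% of the windows, was found in 2 of these 7, and in the one shown it begins 57 bases before the start. None of the 3 motifs was found in the VIM window. AP-1 sites, in 6.57% of windows, were found in none of these 3 windows. A match is a run of letters and not a measured binding site.

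Levels were first compared between the genes, as TPM, which are counts per length of gene scaled to the same sum in every library. The cells made VIM at a high level, 3 transcription factors at low to moderate levels and almost none of the other genes. With DMSO, VIM was at 1660 ± 51.7 TPM (SD, n = 3), rank 47 of all genes and 115 times the level of ZEB1, the next gene, at 14.4 ± 1.15. SNAI1 followed at 7.06 ± 0.792 TPM and SNAI2 at 4.26 ± 0.204. The order of these 2 rests on the length of all merged exons, since SNAI2 had more counts with DMSO, 117 against 96. FN1 was at 0.223 ± 0.112 TPM. ESRP1 averaged 0.0782 TPM from 3 counts in 1 library. The ranges of neighbors in this order did not overlap as far as FN1, whereas those of FN1 and ESRP1 did. ZEB2, TWIST1, CDH1 and CDH2 had 0 counts in all 3 DMSO libraries, which allows up to 0.107 normalized CPM (counts scaled to a common library total with TMM factors) over the group, an interval for counting error only. Thus both cadherins were undetected in untreated cells, and VIM was the single structural marker at a high level. With compound 1 the order of the first 5 genes was the same. With SCH772984, SNAI2 came next after VIM, at 18.0 ± 2.28 TPM, ahead of ZEB1 at 10.0 ± 1.53 and SNAI1 at 5.02 ± 0.285.

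**Figure D1:**
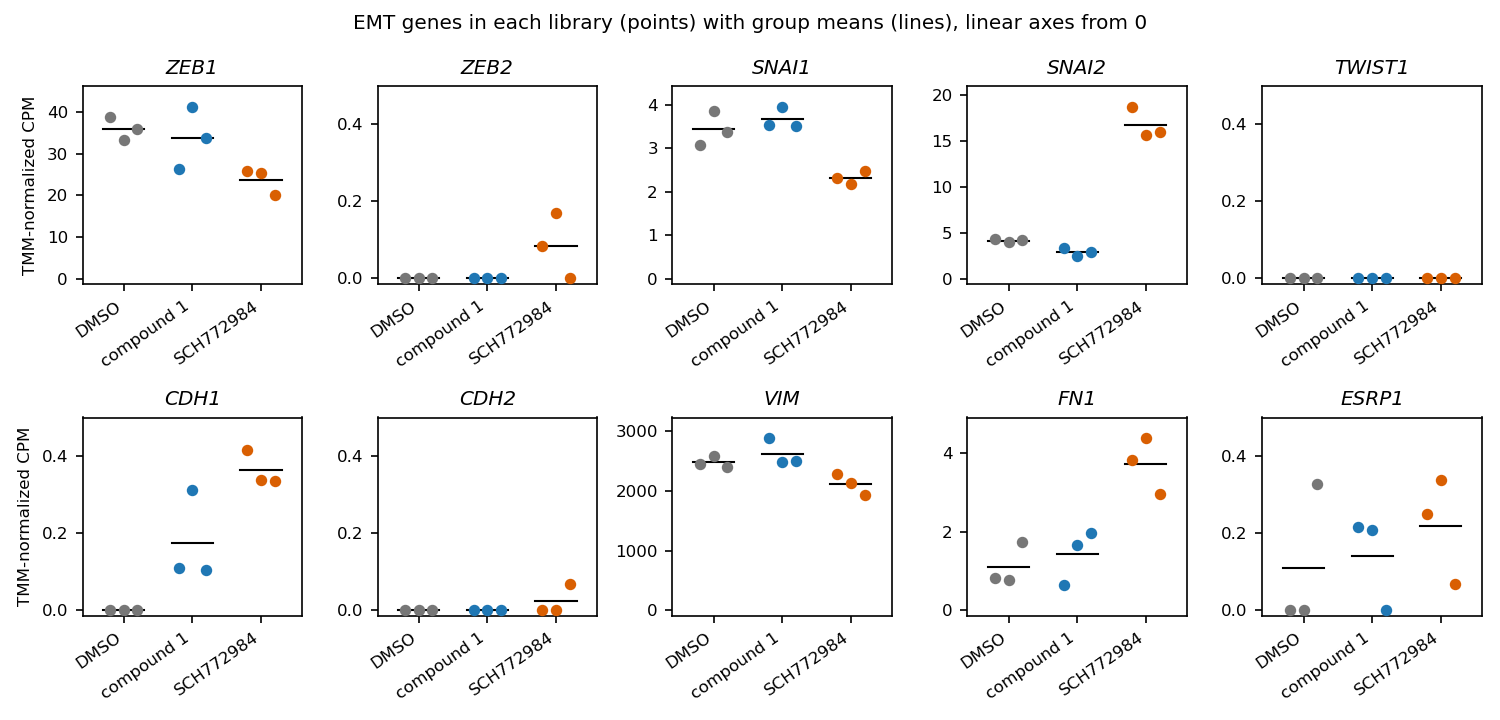
TMM-normalized CPM (y axis, linear, from 0) of the 10 genes in 3 DMSO, 3 compound 1 and 3 SCH772984 libraries, with a point per library and a line at the group mean. SNAI2 and FN1 are highest in the 3 SCH772984 libraries, ZEB1, SNAI1 and VIM are lowest there, and ZEB2, TWIST1, CDH1, CDH2 and ESRP1 stay below 0.5 CPM throughout.

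The first question was how inhibition of ERK bore on these genes. A gene was called where its adjusted p was under 0.05 in edgeR's quasi-likelihood test, with Benjamini-Hochberg adjustment over all genes tested. Of the 10 genes, 5 had enough counts to be tested, and 4 of these were called in SCH772984 against DMSO, SNAI2 and FN1 higher and ZEB1 and VIM lower. The background was high, since 72.8% of the 13834 genes tested were called in this comparison, 37.2% higher and 35.5% lower. A count of 4 in 5 is therefore close to that of genes in general, and the sizes of the changes tell more than their number. The median absolute log2 fold change of all genes tested was 0.59. The sizes given below for ZEB1 and SNAI1 lie near it, that of VIM lies below it, and those of SNAI2 and FN1 lie above it. Whether groups overlapped is given below as a description only, since the share of all genes without overlap was not counted. RNA from whole cultures cannot tell fewer cells expressing a gene from less of its RNA per cell.

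SNAI2 encodes the repressor Slug. It had 42, 36 and 39 counts in the DMSO libraries and 226, 186 and 238 in the SCH772984 libraries. The groups did not overlap, at 4.18 ± 0.181 and 16.8 ± 1.71 normalized CPM (SD, n = 3). The log2 fold change was 2.00 (SE 0.168, edgeR adjusted p = 1.88e-14), a rise of 3.99-fold with a 95% interval of 3.16 to 5.05.

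ZEB1, the most abundant of the factors in untreated cells, moved the other way. It had 379, 301 and 328 counts with DMSO and 311, 301 and 300 with SCH772984. The raw counts overlapped, but the SCH772984 libraries were larger, and the normalized values, 35.9 ± 2.81 and 23.8 ± 3.17 CPM (SD, n = 3), did not. On the log2 scale the change was -0.61 (SE 0.105, edgeR adjusted p = 1.68e-06), or 1.53-fold lower. With scaling by library size alone it was -0.44 (edgeR adjusted p = 3.58e-04).

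SNAI1, which encodes the repressor Snail, had 30, 35 and 31 counts with DMSO and 28, 26 and 37 with SCH772984. At this depth its normalized values, 3.44 ± 0.396 and 2.33 ± 0.145 CPM (SD, n = 3), did not overlap. The log2 fold change of -0.56 (SE 0.276) nonetheless missed the threshold, with an edgeR adjusted p of 0.0669 and a 95% interval of -1.12 to -0.00074. SNAI1 and SNAI2 are close relatives, and their estimates in the same libraries had opposite signs.

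The make-up of the factor RNA shifted accordingly. With DMSO, ZEB1 made up 55.9% ± 3.31 of the summed TPM of the 5 factors, SNAI1 27.5% ± 3.68 and SNAI2 16.6% ± 0.479 (SD, n = 3). With SCH772984 the shares were 30.2% ± 2.87, 15.3% ± 1.78 and 54.5% ± 2.01. The SNAI2 share was 16.0% to 17.0% in the DMSO libraries and 52.2% to 55.9% in the SCH772984 libraries, so that the leading factor changed from ZEB1 to SNAI2 in each of the 3. The sum itself was 25.7 ± 0.549 TPM with DMSO and 33.0 ± 3.50 with SCH772984. These shares rest on the same counts as the fold changes and on merged exon lengths, and carry no test of their own. Without division by length, ZEB1 stayed ahead of SNAI2 with SCH772984, at 23.8 ± 3.17 against 16.8 ± 1.71 normalized CPM.

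**Figure D2:**
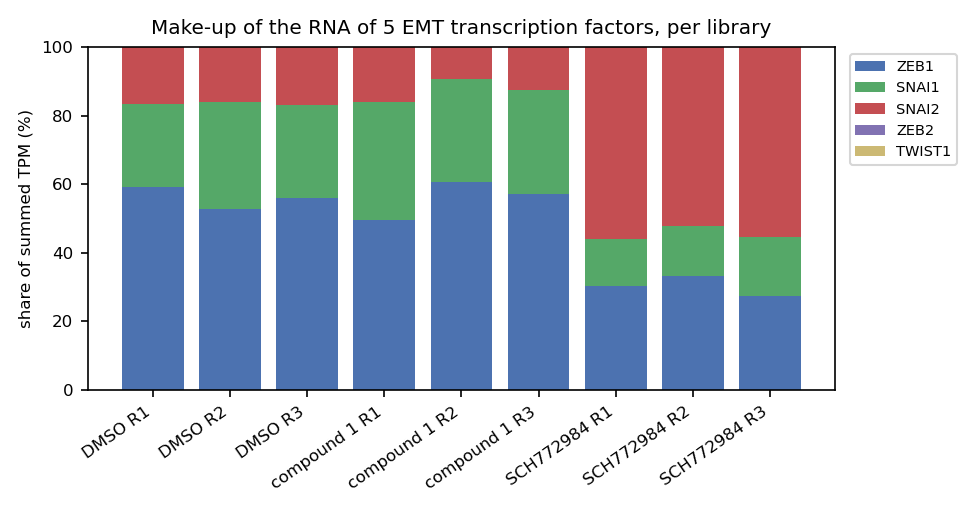
Share (%, y axis) of ZEB1, SNAI1, SNAI2, ZEB2 and TWIST1 in their summed TPM, as a stacked bar for each of the 9 libraries. SNAI2 takes 16.0% to 17.0% in the DMSO libraries and 52.2% to 55.9% in the SCH772984 libraries, while ZEB2 and TWIST1 take almost nothing in any.

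ZEB2 and TWIST1 added little to this picture. ZEB2, the paralog of ZEB1, had 0 counts in the 6 DMSO and compound 1 libraries and 1, 2 and 0 in the SCH772984 libraries. TWIST1 had 0 counts in all 9, which allows up to 0.0772 normalized CPM over the SCH772984 group. No fold is given for either gene.

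Among the structural markers, VIM had 23845, 23356 and 21970 counts with DMSO and 27528, 25219 and 28788 with SCH772984. In normalized CPM the groups were 2471 ± 91.1 and 2112 ± 178 (SD, n = 3) and did not overlap. Its log2 fold change was -0.23 (SE 0.0617, edgeR adjusted p = 8.99e-04), a fall of 1.17-fold. This small change depended on the scaling, being -0.06 (edgeR adjusted p = 0.380) with library size alone, a choice that moved the median of all genes from 0.03 to 0.20. By the main scaling VIM stood at -0.26 relative to the median of all genes on the log2 scale, and it was the most abundant of the 10 in every condition.

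FN1 went up from a very low level. It had 8, 7 and 16 counts with DMSO and 46, 52 and 44 with SCH772984. In this comparison it passed the filter on low counts through the SCH772984 libraries, where it was high, although it also passed in compound 1 against DMSO, without these libraries. In normalized CPM this was 1.11 ± 0.551 and 3.72 ± 0.722 (SD, n = 3), without overlap. The log2 fold change was 1.72 (SE 0.341, edgeR adjusted p = 1.89e-05), or 3.29-fold with a 95% interval of 2.05 to 5.30, which overlaps that of SNAI2. Without DMSO replicate 3 the log2 fold change of FN1 was 2.17 and that of SNAI2 1.99, so these genes are not ranked. Even so, FN1 remained at 0.781 ± 0.159 TPM with SCH772984, against 1490 ± 163 for VIM.

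CDH1 had too few counts for the test. It had 0 counts in each DMSO library and 5, 4 and 5 in the SCH772984 libraries. Set against 3 counts for the DMSO group, the 14 counts of the SCH772984 group were at least 3.36-fold higher in normalized CPM. The level reached with SCH772984, 0.214 ± 0.0324 TPM (SD, n = 3), was still about that of FN1 in untreated cells. CDH2 had 1 count in all 9 libraries together, in replicate 3 of SCH772984, so no switch between the cadherins could be measured.

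ESRP1 had 0, 0 and 3 counts with DMSO and 3, 4 and 1 with SCH772984. The ratio of the pooled counts after scaling was 1.92, with a counting interval of 0.461 to 11.2. A difference was not detectable at this depth.

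**Figure D3:**
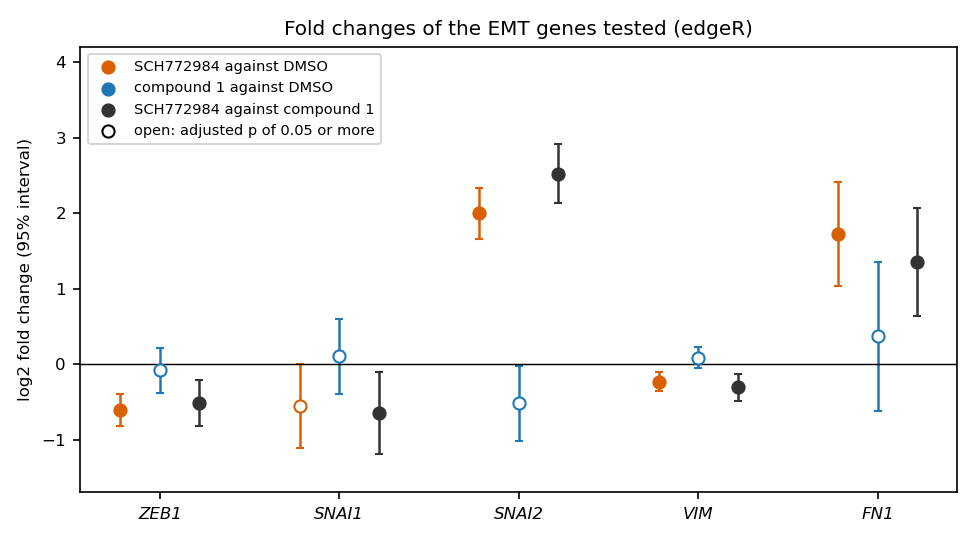
Log2 fold changes (y axis) with 95% intervals from edgeR for the 5 genes with enough counts, in 3 comparisons, where filled points have an adjusted p under 0.05 and open points do not. SNAI2 stands at 2.00 and 2.52 and FN1 at 1.72 and 1.36 in the SCH772984 comparisons, while each compound 1 point against DMSO is open.

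The same question was asked of TBK1 and IKKε inhibition. In compound 1 against DMSO, 0 of the 5 genes tested were called by edgeR, against 0.864% of the 12849 genes tested, and 1, SNAI2, had an unadjusted p under 0.05, as 15.0% of all genes did. DESeq2 also called 0. SNAI2 had 31, 24 and 28 counts with compound 1. Its normalized values, 2.91 ± 0.415 CPM (SD, n = 3), lay below those of all 3 DMSO libraries, a separation that was not counted over all genes. The estimated change was -0.52 on the log2 scale (SE 0.234, edgeR unadjusted p = 0.0426, adjusted p = 0.310) with a 95% interval of -1.01 to -0.02. The estimate was thus negative with compound 1, whereas SNAI2 rose with SCH772984.

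ZEB1 had 244, 396 and 326 counts with compound 1, the lowest in replicate 1, the library that stood apart. Its log2 fold change was -0.09 (95% interval -0.38 to 0.21, edgeR adjusted p = 0.822), and 0.07 (edgeR adjusted p = 0.755) without that library. SNAI1 had 33, 38 and 34 counts, with a log2 fold change of 0.10 (95% interval -0.39 to 0.60, edgeR adjusted p = 0.880). For these 2 factors the groups overlapped and changes within the intervals were not detectable.

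VIM had 26775, 23713 and 24113 counts with compound 1, again with replicate 1 farthest from the others. Its log2 fold change of 0.08 had a narrow 95% interval, -0.05 to 0.22 (edgeR adjusted p = 0.588). FN1 had 6, 16 and 19 counts and a log2 fold change of 0.37, with a wide interval of -0.62 to 1.36 (edgeR adjusted p = 0.760). The precision for VIM therefore limits any change to a small one, whereas for FN1 a change of the size seen with SCH772984 lies just above the interval. The limit for FN1 is not firm, since its estimate was 0.07 to 0.84 when single libraries were left out.

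CDH1 had 1, 3 and 1 counts with compound 1, at least 1.63-fold higher than the limit set by 0 counts with DMSO. The bound takes these 5 reads as exact, and in a fit without a filter the edgeR adjusted p was 0.500. ESRP1 had 2, 2 and 0 counts, a pooled ratio to DMSO of 1.31 with a counting interval of 0.221 to 8.93. ZEB2, TWIST1 and CDH2 had 0 counts in the compound 1 libraries, which allows up to 0.105 normalized CPM over the group.

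The inhibitors were then compared directly at the same dose and time, a comparison that shares its libraries with those above. All 5 genes tested were called in SCH772984 against compound 1, where 66.3% of 13863 genes were, 33.7% higher and 32.6% lower. SNAI2 was 5.75-fold higher with SCH772984 (log2 fold change 2.52, SE 0.186, edgeR adjusted p = 2.19e-10), and FN1 was 2.56-fold higher (log2 fold change 1.36, SE 0.343, edgeR adjusted p = 0.00160). ZEB1 was 1.43-fold lower (log2 fold change -0.51, SE 0.148, edgeR adjusted p = 0.00445). VIM was 1.24-fold lower (log2 fold change -0.31, SE 0.0861, edgeR adjusted p = 0.00370) and SNAI1 1.57-fold lower (log2 fold change -0.65, SE 0.260, edgeR adjusted p = 0.0325). With library size alone the calls for VIM and SNAI1 were lost, and SNAI1 lost its call in 9 of 15 alternatives, with edgeR or DESeq2 adjusted p of 0.0505 to 0.0909. For CDH1 the pooled counts were 14 and 5, a scaled ratio of 2.06 with a counting interval of 0.700 to 7.30. Between the inhibitors, SNAI2 and FN1 thus differed in one direction and ZEB1, VIM and SNAI1 in the other, with the limits given for VIM and SNAI1, and no difference was detectable for CDH1 and ESRP1.

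By Euclidean distance between centered profiles of log2(CPM + 1) over the 9 libraries, a description that follows the SCH772984 libraries most, the 3 protein-coding genes nearest to ZEB1 were MAP3K20, IVNS1ABP and ATR, at 0.218, 0.276 and 0.287. The median over 11620 genes was 1.17. The genes nearest to VIM were SOD1, MORF4L1 and CETN3, at 0.0856, 0.110 and 0.128, against a median of 0.929.

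Other genes of the EMT program were then counted from 8 lists with 120 genes, of which 77 could be tested in SCH772984 against DMSO. Of these, 38 were higher, 25 lower and 14 not called, or 42 higher and 20 lower with library size alone, and over all genes 5150 were higher and 4916 lower, or 6242 and 3911. Of 11 other EMT factors, 5 were tested, with 3 higher and 2 lower. SNAI3, the third SNAI gene, rose by 2.13 on the log2 scale (with SNAI3-AS1 overlapping it) and SOX4 by 1.79 (edgeR adjusted p = 3.70e-12). TCF3, which encodes E proteins that repress CDH1, had a log2 fold change of -0.61 (edgeR adjusted p = 1.23e-11). The median of all genes was 0.03. That of the list was 0.27, but SNAI3 had enough counts only through the SCH772984 libraries, and with at least 10 counts in every library the median of the 4 genes left was -0.03, with 2 higher and 2 lower.

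The next lists are given beside the 37.2% of all genes that were higher and the 35.5% that were lower with SCH772984, and no list was tested against the rest. Of 34 genes of epithelial junctions and keratins, 20 were tested, with 11 higher, 6 lower and a median log2 fold change of 0.56. The tight junction gene TJP3 was 7.08-fold higher and the mucin gene MUC1 6.80-fold higher, while the keratin genes KRT18 and KRT8, which overlap each other on opposite strands, were 5.29-fold and 3.24-fold lower. Of 32 mesenchymal genes, 20 were tested, with 12 higher, 4 lower and a median of 1.06. Of these 20, 4 could not be tested in compound 1 against DMSO, and with at least 10 counts in every library 14 were tested, with 7 higher, 4 lower and a median of 0.40. The same filter left 18 junction and keratin genes, with 10 higher, 5 lower and a median of 0.40. PDGFRB, a growth factor receptor of mesenchymal cells, had 0 to 2 counts per library with DMSO and 64 to 99 with SCH772984, and the collagen gene COL1A1 had 1 to 4 and 28 to 48. Both are among these 4 genes, which passed the filter only through the SCH772984 libraries, so their adjusted p is not given. NT5E, which encodes the ectonucleotidase CD73, was 4.54-fold lower. COL1A1 and PDGFRB are also fibroblast markers, a list of 6 genes whose summed level was 434 to 481 CPM with DMSO, 466 to 507 with compound 1 and 1066 to 1199 with SCH772984, almost all of it COL1A2, while the fibroblast markers DCN and LUM had at most 1 count in any library.

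Of 11 epithelial transcription factors, 5 were tested and 2 were higher, ELF3 by 9.17-fold (edgeR adjusted p = 1.59e-19, with ELF3-AS1 overlapping it) and EHF by 1.47-fold. All 4 catenins tested of 6, the partners of cadherins inside the cell, were higher, by log2 fold changes of 0.16 to 0.43, while CDH1 and CDH2 were almost absent. The smallest of these changes, that of CTNNB1 (edgeR adjusted p = 0.0207), was not called without a filter or without DMSO replicate 2 or 3 or SCH772984 replicate 1 or 2, with edgeR adjusted p of 0.0714 to 0.187. Of 8 corepressors that work with SNAI and ZEB proteins, all were tested and 7 were lower, where 35.5% of all genes were, or 5 with library size alone, where 3911 of 13834 genes were, with CTBP2, a partner of ZEB1, 2.07-fold and EZH2, a histone methyltransferase, 1.90-fold lower. Of 6 further splicing regulators, 5 were tested, with 2 higher and 2 lower. RBFOX2, one of the genes called higher, lost its call without a filter or without DMSO replicate 1 or 3 or SCH772984 replicate 1, which left 1 higher. Without SCH772984 replicate 2 there were 3 lower. RBM47 was 1.51-fold higher, and SRSF1 was 2.63-fold lower. Of 12 TGF-β pathway genes, 10 were tested, with 4 higher and 4 lower. Among the ligands TGFB3 was 5.57-fold higher and TGFB1 1.47-fold lower, and among the inhibitors of the pathway SMAD7 was 6.58-fold higher and SKI 1.55-fold lower. The medians of these 5 lists were 0.55, 0.30, -0.41, -0.11 and -0.19 in this order. With library size alone they were 0.73, 0.47, -0.23, 0.06 and -0.02, where the median of all genes was 0.20. FOXA1, an epithelial factor, could be tested only through the SCH772984 libraries, and the median of the epithelial factors was 0.44 with at least 10 counts in every library, 0.37 with all 9 libraries fitted together, 0.32 without DMSO replicate 1 and 0.28 without DMSO replicate 3. Genes with counts overlap EZH2, SRSF1, RBFOX2, CTBP2, TGFB3, TGFB1 and AXL on the opposite strand, IFT43 in the case of TGFB3 and ZRANB1 in that of CTBP2, so their values share the uncertainty of strand.

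With compound 1, 1 of the 71 genes tested from these lists was called, against 0.864% of all genes. AXL, a receptor tyrosine kinase linked to mesenchymal states, was 1.38-fold lower than with DMSO (log2 fold change -0.46, SE 0.0846, edgeR adjusted p = 0.0247), where 0.374% of all genes were lower. It lost this call when any of 5 single libraries was left out, among them each of the 3 DMSO libraries. With SCH772984, AXL was also lower than with DMSO (log2 fold change -0.39, edgeR adjusted p = 1.46e-06), where 35.5% of all genes were lower. Between the inhibitors AXL was not called (log2 fold change 0.08, edgeR adjusted p = 0.413). Without replicate 1 of compound 1, 9 of the list genes were lower and 5 higher, in a fit that called 9.56% of all genes, 6.10% lower and 3.46% higher.

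**Figure D4:**
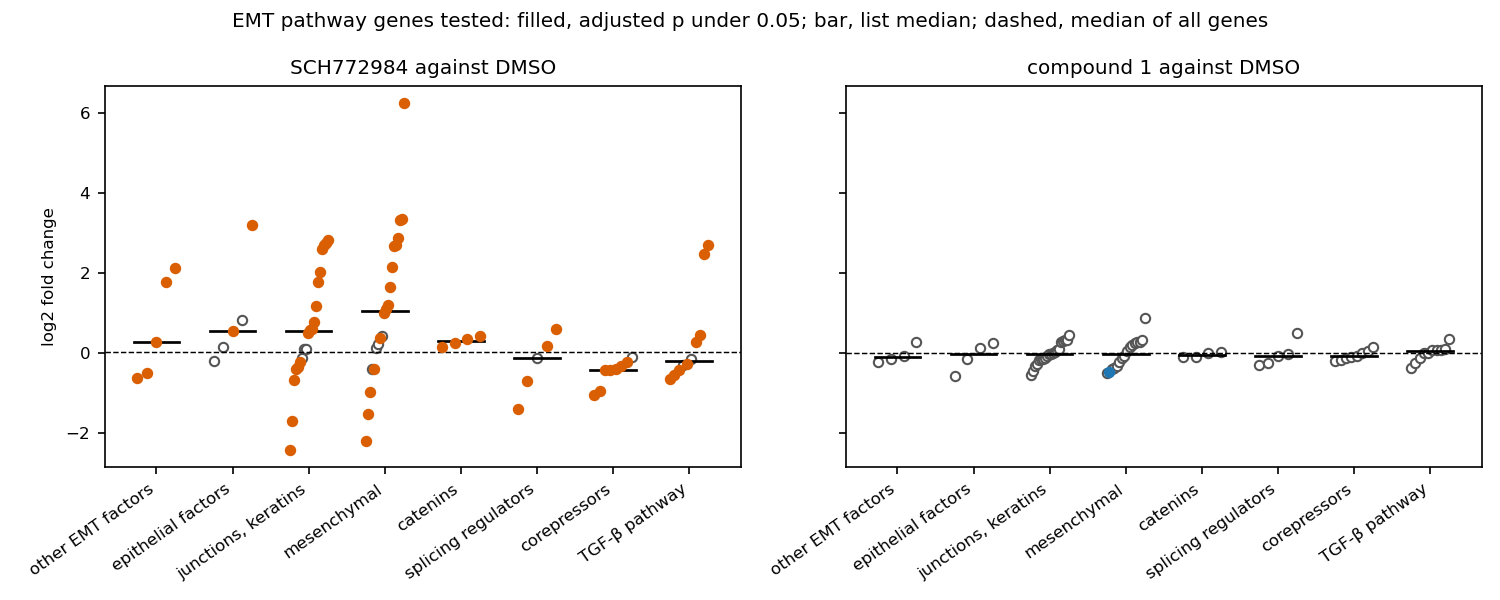
Log2 fold changes (y axis) of the tested genes of 8 lists (x axis) in SCH772984 against DMSO (left) and compound 1 against DMSO (right), with filled points for an adjusted p under 0.05, a bar at each list's median and a dashed line at the median of all genes. The values spread from -2.40 to 6.25 with SCH772984, the latter for PDGFRB, whose fitted value is no bound since it had at most 2 counts per DMSO library, and from -0.56 to 0.87 with compound 1, where 1 point, AXL, is filled.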

How the data were processed

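RNA-seq of 9 MIA PaCa-2 libraries, 3 per condition, was used as raw read counts per gene, which the authors deposited without normalization or filter for 58735 genes. The submitters' processing notes name HISAT2 2.0.5, featureCounts 1.5.0-p3 and hg38. All gene names and coordinates match GENCODE 29. The strand setting is not given in the sources used here. Groups came from the labels.

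Each pair of conditions was fitted alone with edgeR 4.0.16 (quasi-likelihood test, robust, TMM, filterByExpr with a minimum count of 10 and a minimum total of 15, two-sided) in R 4.3.3, with adjustment over all genes tested. Normalized CPM used TMM factors over 9 libraries. TPM used the deposited gene lengths. Where a group had 0 counts, folds were computed against 3 counts over that group. Counting intervals are exact at 95%. The main edgeR fit of each pair was also run on simulated data, whereas the alternative settings were not.

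The genes and lists were chosen with earlier results of these data known. Named besides the 10 genes were genes overlapping them, up to 2 higher and 2 lower per list with the largest change and at least 1 CPM (not all of them are printed), and the nearest profiles of the most abundant factor and marker. The alternatives were an unadjusted p, library size alone, RLE factors, no filter, a stricter filter (every library at 10 counts or more), a joint fit of all 9 libraries, a replicate block, protein-coding genes only, DESeq2 1.42.0 and leaving out each library.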

Additional observations from a re-analysis of the deposited data

How the results depend on the processing

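In SCH772984 against DMSO, 3 to 5 of the 10 genes were called over all 15 alternatives. The count was 5 without a filter, which added CDH1. This gene had 0 counts with DMSO and entered the fit only through the SCH772984 libraries, so its adjusted p is not given. In SCH772984 against compound 1 without a filter, CDH1 had an edgeR adjusted p of 0.466. The count was 3 with library size alone, which lost VIM, or with at least 10 counts in every library, which left FN1 untested. In compound 1 against DMSO the count was 1 at an unadjusted p, SNAI2, and 0 under every other alternative. In SCH772984 against compound 1 it was 3 with library size alone, and 4 to 5 when single libraries were left out. The log2 fold change of ZEB1 with compound 1 was -0.26 to 0.0674 when single libraries were left out, with 0.0674 without replicate 1 of compound 1. Of 222 values of single members under alternatives, 208 kept their direction and side of the threshold, and of 400 values of the named list genes 391 did.

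Among the list genes with compound 1, 0 were higher and 1 lower as reported. These counts were 8 and 9 at an unadjusted p, 1 and 1 with library size alone, 2 and 4 without a filter, 1 and 2 with all 9 libraries in one fit and 1 and 2 with DESeq2. Over all genes, 0.864% were called as reported, 15.0% at an unadjusted p, 0.856% with library size alone, 1.61% without a filter, 1.35% with all 9 libraries and 1.86% with DESeq2. When single libraries were left out the counts of list genes ranged from 0 to 5 higher and from 0 to 9 lower. The cause was not tested.

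The labels do not say whether libraries with the same replicate number were paired. Same-numbered libraries had correlations of -0.10 to 0.16 between their deviations from the group means. Between libraries with different numbers these were -0.15 to 0.21. With so few libraries per group, these values cannot decide whether the libraries were paired. With the replicate number as a block, 2 list genes were higher and 5 lower with compound 1, where 3.21% of all genes were called against 0.864% without the block, and 0 of the 10 genes were called. SNAI1 in SCH772984 against compound 1 had an edgeR adjusted p of 0.0505 in this fit.

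Depth limits CDH1, CDH2, ZEB2, TWIST1 and ESRP1, with at most 5 counts in any library.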

Other observations

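Vimentin and the keratins of simple epithelia are intermediate filament proteins at opposite ends of the EMT program, and their RNAs changed to different extents with SCH772984. Per length, the ratio of VIM to KRT8 was 1.33 ± 0.0483 with DMSO, 1.55 ± 0.0612 with compound 1 and 3.67 ± 0.451 with SCH772984 (SD, n = 3). For VIM over KRT18 it was 1.76 ± 0.0598, 2.06 ± 0.0859 and 7.92 ± 0.775. For VIM over KRT19, a keratin whose change with SCH772984 missed the threshold, it was 4.48 ± 0.443, 4.72 ± 0.450 and 3.53 ± 0.439, so that this ratio went the other way with SCH772984. The ranges of the 3 conditions did not overlap for KRT8 and KRT18, and those of DMSO and compound 1 overlapped for KRT19. These ratios were chosen after the values were seen and carry no test, and 50 and 67 pseudogenes are named after KRT8 and KRT18, with which reads can be shared.

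The epithelial lists were expressed in part. Of 34 junction and keratin genes, 13 had at least 100 counts in every library, CLDN1 and CLDN4 among them, and 6 had at most 3 in every library. Of 11 epithelial transcription factors, 1, EHF, had at least 100 counts in every library and 4 had at most 3. GRHL2 and GRHL3, which encode epithelial transcription factors, had 0 counts in all 9 libraries, as did EPCAM. CLDN3 and CLDN7, tight junction genes, had at most 2 and 3. TGFBR2, the receptor subunit that binds TGF-β ligands, had 0 to 2 counts per library, whereas TGFBR1 had 300 to 699. This choice of genes was made with their values in view.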
